A study of Mus musculus with 15 samples.

Results

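Thyroid hormone signalling was examined through 5 genes in fat of the mouse inguinal depot, which lies under the skin. They were taken by symbol from a table of raw counts for 37991 genes and cover the activating deiodinase Dio2, the hormone transporter Slc16a10, the receptors Thra and Thrb and the responsive gene Thrsp. All 5 symbols were found, each in 1 row, and all 5 passed the filter on low counts that left 12188 genes for testing. RNA of whole tissue was sequenced from 15 C57BL/6 mice aged 8 weeks, with 5 mice in each of 3 groups. Every mouse carried floxed alleles of LKB1, a kinase upstream of AMPK whose gene is Stk11. The WT group had the genotype LKB1 F/F without Cre, the KO group AdipoqCre LKB1 F/F, and the dKO group AdipoqCre LKB1 F/F; HDAC4 F/F. AdipoqCre is a recombinase under the adiponectin promoter, which is active in adipocytes, so other cells of the depot were not targeted. WT mice lacked the recombinase, so its presence and the loss of LKB1 cannot be told apart, and no group had HDAC4 targeted alone.

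The thyroid gland secretes mostly thyroxine (T4), a prohormone. Type 2 deiodinase, the product of Dio2, removes an outer-ring iodine inside the cell and yields triiodothyronine (T3), the ligand of the nuclear receptors. T3 enters and leaves cells through transporters such as the one encoded by Slc16a10, and binds receptors that sit on DNA as dimers with a retinoid X receptor. In brown fat, Dio2 is induced by noradrenaline through cAMP, and the T3 it makes is needed for full thermogenesis. In fat and liver, T3 also raises genes of fatty acid synthesis, among them Thrsp.

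The promoter windows of Dio2 and Thrsp are shown first, because they are the members with the widest range among the libraries. The sequences are those of RefSeq on GRCm38.p6, from 250 bases before to 50 bases after the annotated start site, written 5′ to 3′ on the strand of the gene. The Dio2 window lies on the minus strand at chr12:90738989-90739288, and capitals mark the cAMP response element TGACGTCA and the TATA box TATAAA. The Thrsp window lies on the minus strand at chr7:97417501-97417800, and capitals mark CCAAT boxes in either orientation.
Dio2: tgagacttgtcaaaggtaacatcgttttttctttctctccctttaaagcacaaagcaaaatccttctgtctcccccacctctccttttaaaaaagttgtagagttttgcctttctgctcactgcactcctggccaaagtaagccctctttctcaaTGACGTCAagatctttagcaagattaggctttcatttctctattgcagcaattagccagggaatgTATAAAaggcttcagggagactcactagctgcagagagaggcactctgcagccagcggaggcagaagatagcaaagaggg
Thrsp: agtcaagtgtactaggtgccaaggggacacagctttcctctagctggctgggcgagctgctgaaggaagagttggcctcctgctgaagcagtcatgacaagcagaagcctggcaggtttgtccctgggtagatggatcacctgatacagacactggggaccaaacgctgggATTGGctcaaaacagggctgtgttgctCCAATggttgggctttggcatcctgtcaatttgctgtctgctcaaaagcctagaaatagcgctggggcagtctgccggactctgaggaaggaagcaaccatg

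In the Dio2 window the cAMP response element ran from 95 to 88 bases before the start site and the TATA box from 30 to 25 bases before it. TGACGTCA, which reads the same on both strands, was held by 1.79% of the 32851 promoter windows of the same length, and TATAAA on either strand by 13.6%. Among the 5 windows found for the members (2 of them of Thrb, and none of Thra), TGACGTCA was in that of Dio2 and in no other. The Thrsp window held CCAAT on the minus strand 79 to 75 bases and on the plus strand 52 to 48 bases before the start site, and 37.4% of all windows held that motif on either strand. A direct-repeat thyroid hormone response element, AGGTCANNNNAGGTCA on either strand, was in 0.0152% of windows and in none of the members' 5. The single element AGGTCA was in 1 Thrb window and in 16.3% of all windows. These matches describe the letters of the windows and are not evidence of binding.

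Total counts ran from 1564004 to 21570688 per library, and 33.55 to 50.03% of them came from mt-Rnr1 and mt-Rnr2, which encode mitochondrial ribosomal RNA. Levels are given as CPM, counts per 1000000 counts of the TMM-adjusted library. Stk11 averaged 29.6 ± 6.33 CPM (WT), 18.0 ± 4.20 (KO) and 19.4 ± 2.84 (dKO), each a mean ± SD of n = 5, as are all later values with ±. Its KO value lay 0.69 below WT on the log2 scale (-0.69, SE 0.18) and missed the threshold of 0.05 in edgeR (adjusted p = 0.115). Hdac4, listed as 2 features, did not differ detectably between dKO and KO (adjusted p = 0.990 for each), and counts per gene do not show which exons were removed. The summed CPM of 6 adipocyte markers spanned 1395 to 2325 (WT), 1524 to 1942 (KO) and 1302 to 2630 (dKO), and none of the 6 was at 0. Mice 1753 and 1753-2 of the dKO group lay far from the other 13, with 6210 and 6187 CPM of the fatty acid synthase Fasn against 354 to 2590 CPM. Their labels are nearly the same, and each entered as a mouse of its own, as the stated group size of 5 implies. The labels do not settle whether these libraries came from 2 mice or from 1. If they came from 1 mouse, the dKO spread and the p-values of dKO comparisons would treat repeated libraries as separate mice. The dKO libraries had barcodes 12 to 16, which no other group had, and the barcode's part there cannot be told apart from that of the genotype.

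Dio2 was nearly silent in WT fat and strongly expressed once LKB1 was targeted in adipocytes. Dio2 (ENSMUSG00000007682, mm9 chromosome 12, 91962994 to 91976878, minus strand, 2 exons) had 20, 2, 7, 4 and 7 counts in the WT libraries, or 5.23, 0.62, 2.08, 1.53 and 1.87 CPM. In KO the counts were 7329, 1152, 525, 350 and 296, or 355, 190, 226, 101 and 107 CPM. The lowest KO library thus lay far above the highest WT library, and within KO replicates 1 to 3 lay above replicates 4 and 5. In dKO the counts were 424, 586, 115, 544 and 815, or 138, 147, 71.5, 63.5 and 69.1 CPM. All dKO libraries lay above WT, and they overlapped with KO.

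The WT mean was 2.27 ± 1.75 CPM, the KO mean 196 ± 104 and the dKO mean 97.8 ± 41.0. Relative to WT, Dio2 rose 82.8-fold in KO (log2 6.37 with an SE of 0.52, adjusted p = 2.17e-05 by edgeR) and 41.1-fold in dKO (5.36 with an SE of 0.51, adjusted p = 0.00021). Among all 12188 genes, 0.435% were called higher in KO and 0.427% in dKO against WT, and Dio2 was the 1 member of 5 called in each. Its log2 fold changes against WT were the highest of all tested genes in both mutant groups. Against KO, dKO was 2.02-fold lower (log2 fold change -1.01, 95% interval -1.79 to -0.24), which had an unadjusted p of 0.0139 and did not pass (edgeR adjusted p = 0.696). Of all genes, 6.17% had an unadjusted p under 0.05 there. In that comparison 0.0738% of all genes were called, and none of the members was among them. WT Dio2 rests on 40 counts over 5 libraries, so the size of its rise is far less certain than its direction. With the 1753 mice left out, Dio2 had log2 fold changes of 6.36 (KO to WT), 5.65 (dKO to WT) and -0.71 (dKO to KO).

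**Figure D1:**
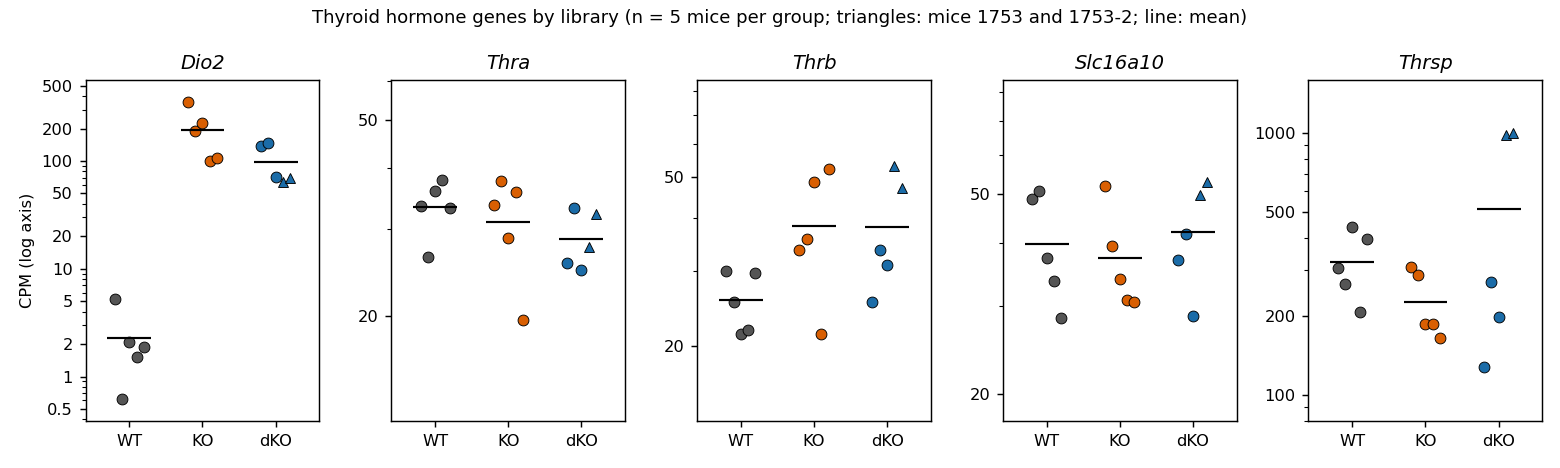
CPM on a log axis for each of 5 genes, 1 point per library and 5 libraries per group. Lines are group means, and triangles are the libraries labelled 1753 and 1753-2. Dio2 separates WT (at most 5.23 CPM) from KO and dKO (at least 63.5 CPM), and the 2 triangles lie highest for Thrsp.

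Whole tissue was measured, so for each gene fewer cells of a type and less RNA per cell cannot be told apart. Dio2 is also a gene of skeletal muscle, and 8 muscle markers, none of them at 0 throughout a group, summed to 2.94 to 1087 CPM (WT), 47.6 to 2895 (KO) and 5.60 to 384 (dKO). WT replicate 1 was highest in both its group's muscle sum and its Dio2 level. In KO the muscle sum was highest in replicate 3 and Dio2 in replicate 1. The part of muscle in the Dio2 levels was not tested. The summed CPM of 6 brown and beige adipocyte markers (Ucp1, Cidea, Cox7a1, Cox8b, Elovl3 and Otop1) was 32.5 to 88.4 (WT), 363 to 896 (KO) and 122.5 to 242 (dKO), and Ucp1 held most of it in KO. The other 5 summed to 27.9 to 63.0 CPM (WT), 105 to 194 (KO) and 59.1 to 140.5 (dKO), so that dKO overlapped with WT once Ucp1 was left out. Of the 5 tested, Ucp1, Cox7a1, Cox8b and Otop1 were called higher in KO and in dKO relative to WT. Among all genes, 0.435% and 0.427% were called higher there. The dKO call of Ucp1 was lost in 1 of 24 alternatives, without the 1753 mice (edgeR adjusted p = 0.0886). The dKO calls of Cox7a1 and Cox8b were each lost in 10 of 24 alternatives (edgeR adjusted p = 0.249 for both without the 1753 mice), and the KO call of Cox8b in 6, while Otop1 passed in all 24 in both comparisons with WT. Cidea, a lipid droplet protein, averaged 10.3 ± 7.28 CPM (WT), 20.4 ± 4.57 (KO) and 7.51 ± 3.20 (dKO), and neither difference from WT passed in edgeR (log2 0.98, adjusted p = 0.36, and -0.39, adjusted p = 0.675). The part of these cells in the Dio2 levels was not tested.

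The other deiodinases were almost without reads. Dio1, an activating enzyme of liver, kidney and thyroid, had 1 count in 1 KO library and 0 in the other 14. Dio3, which inactivates the hormone, also had 1 count in 1 KO library and 0 in the other 14. Both were below the filter and were not tested. Dio2 thus held all but 2 of the deiodinase reads in these libraries.

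In KO fat and dKO fat, Dio2 and the thermogenic uncoupling protein Ucp1 did not move in proportion. Ucp1, itself a T3-responsive gene in brown fat, averaged 13.9 ± 9.67 CPM (WT), 489 ± 202 (KO) and 98.5 ± 23.6 (dKO). Per library there were 0.0737 to 0.225 Dio2 reads per Ucp1 read in WT libraries, 0.336 to 0.505 in those of KO and 0.625 to 1.36 in those of dKO. The 3 groups did not overlap in this ratio, which was lowest in WT and highest in dKO. Since both genes are read in the same library, the ratio does not depend on how libraries are scaled. The WT ratios rest on 2 to 20 Dio2 reads and 15 to 95 Ucp1 reads per library, which limits their precision.

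On the log2 scale the Dio2 to Ucp1 ratio averaged -2.64 ± 0.705 (WT), -1.36 ± 0.226 (KO) and -0.0713 ± 0.457 (dKO). KO exceeded WT by 1.27 and dKO exceeded KO by 1.29, each with an exact two-sided permutation p of 0.00794 (0.0119 adjusted over 6 ratio tests), the smallest p that 5 against 5 libraries can give. The step from WT to dKO was 2.57, with the same exact p. The ratio was chosen with the values of both genes known, so its p describes these libraries and is not independent support. Leaving out the 1753 mice gave 1.27, 1.61 and 2.88, and with 3 dKO libraries both dKO differences had the smallest exact p that 5 against 3 can give, 0.0357 (0.0536 adjusted over the 6 tests).

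**Figure D2:**
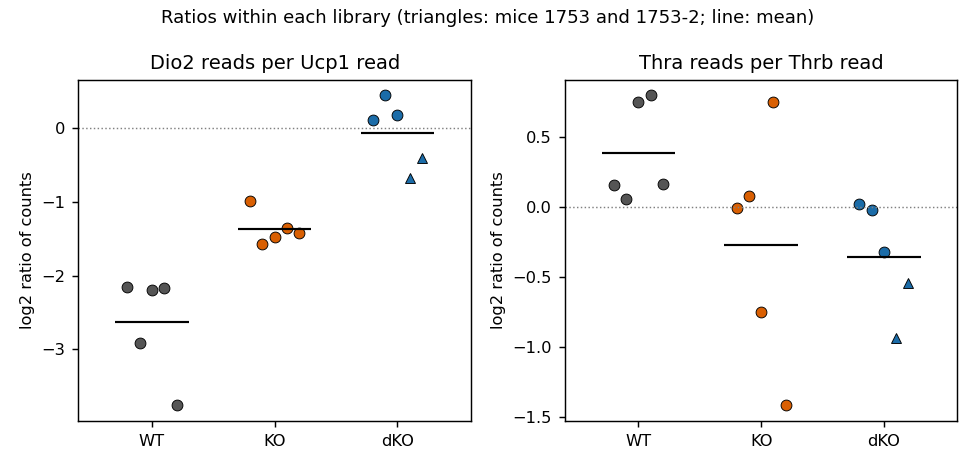
Log2 ratio of counts within each library, Dio2 to Ucp1 on the left and Thra to Thrb on the right, with 1 point per library. Lines are group means, and triangles are the libraries labelled 1753 and 1753-2. The Dio2 to Ucp1 ratio steps up from WT to KO to dKO without overlap, while the Thra to Thrb ratio of KO overlaps with both other groups.

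The transporter Slc16a10 (MCT10), which carries thyroid hormones and aromatic amino acids, was steady by comparison. Slc16a10 (ENSMUSG00000019838, mm9 chromosome 10, 39753341 to 39862062, minus strand, 7 exons) was at 48.9, 50.8, 37.4, 33.6 and 28.3 CPM in WT. The KO libraries had 51.9, 39.5, 34.0, 30.8 and 30.5 CPM, and the dKO libraries 37.0, 41.7, 28.6, 49.9 and 52.9 CPM. All 3 groups overlapped. Its log2 fold changes were -0.08 (KO to WT, 95% interval -0.49 to 0.34), 0.17 (dKO to KO, -0.24 to 0.59) and 0.10 (dKO to WT, -0.32 to 0.52). None passed with edgeR (adjusted p = 0.959, 0.907 and 0.848), and the intervals leave room for differences of up to 0.59 on the log2 scale.

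Of the receptors, Thra showed little difference among the groups and Thrb was higher on average in both mutant groups without passing the test. Thra (ENSMUSG00000058756, mm9 chromosome 11, 98601952 to 98630320, plus strand, 17 exons) encodes the receptor TRα1 and a splice form that does not bind T3, which counts per gene do not separate. Its libraries had 33.5, 26.3, 35.9, 37.8 and 33.1 CPM in WT. The KO values were 33.6, 37.7, 28.8, 35.7 and 19.6 CPM, and the dKO values 25.6, 33.1, 24.9, 27.7 and 32.3 CPM. The groups overlapped, with KO replicate 5 lowest. Log2 fold changes were -0.09 (KO to WT, 95% interval -0.44 to 0.26), -0.11 (dKO to KO, -0.46 to 0.23) and -0.20 (dKO to WT, -0.55 to 0.15), with edgeR adjusted p of 0.934, 0.925 and 0.607.

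Thra shares 263 exon bases with Nr1d1, the gene of the circadian repressor REV-ERBα, which lies on the opposite strand at its 3′ end. The strand setting of the counting is not given in the sources used here, so reads in that stretch cannot be assigned to either gene with certainty. Nr1d1 averaged 113 ± 36.1 CPM (WT), 99.1 ± 25.6 (KO) and 72.9 ± 24.3 (dKO), and its fold changes did not pass in edgeR (adjusted p = 0.288 at the lowest, from WT to dKO). Its part in the Thra counts was not tested.

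Thrb (ENSMUSG00000021779, mm9 chromosome 14, 18493474 to 18870602, plus strand, 14 exons) encodes the TRβ receptors. It was at 30.1, 25.4, 21.4, 21.8 and 29.6 CPM in WT. The KO libraries had 33.8, 35.7, 48.6, 21.3 and 52.3 CPM, and the dKO libraries 25.3, 33.6, 31.1, 53.02 and 47.2 CPM. In KO, 4 of 5 libraries lay above every WT library while replicate 4 lay below them all, and in dKO both 1753 libraries were highest. The log2 fold change was 0.56 (SE 0.23, 95% interval 0.07 to 1.05) from WT to KO and 0.59 (SE 0.23, 0.10 to 1.07) from WT to dKO. Unadjusted p was 0.0260 and 0.0201, and neither passed (edgeR adjusted p = 0.417 and 0.263). An unadjusted p under 0.05 was found for 9.54% and 14.5% of all genes in these comparisons. When the 1753 mice were left out, the dKO value was 0.22 (adjusted p = 0.893). From KO to dKO it was 0.03 (95% interval -0.45 to 0.50), and -0.32 without those libraries.

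Thra and Thrb reads were compared within libraries. Thra reads do not separate the splice form that does not bind T3, and may include reads of the stretch shared with Nr1d1. The ratio is therefore one of reads and not of receptors. There were 1.04 to 1.74 Thra reads per Thrb read in WT libraries, 0.375 to 1.68 in those of KO and 0.522 to 1.01 in those of dKO, so that every dKO library lay below every WT library. The mean log2 ratio was 0.382 ± 0.359 (WT), -0.271 ± 0.831 (KO) and -0.362 ± 0.396 (dKO). By exact two-sided permutation the difference was -0.74 from WT to dKO (p = 0.00794, 0.0119 adjusted over the 6 ratio tests), -0.65 from WT to KO (p = 0.103, adjusted 0.124) and -0.09 from KO to dKO (p = 0.825). Without KO replicate 4 the difference of KO from WT was -0.91 (adjusted p = 0.0381), and without the 1753 mice that of dKO from WT was -0.49 (adjusted p = 0.0536). Like the ratio above it was chosen with the values known.

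**Figure D3:**
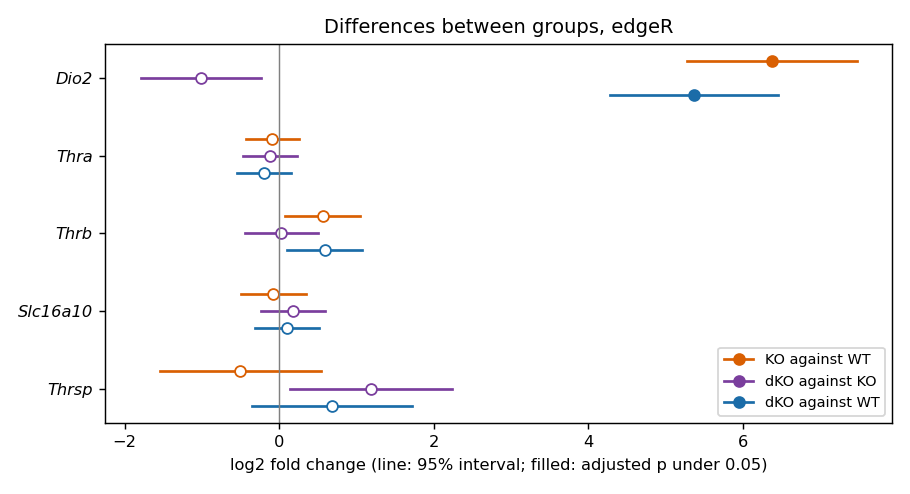
Log2 fold changes of the 5 genes in 3 comparisons by edgeR, with 95% intervals as lines and filled points where the adjusted p was under 0.05. Dio2 is the only gene with filled points, at 6.37 and 5.36 against WT, and the Thra and Slc16a10 intervals all include 0.

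Per kilobase of exon, the order of the genes changed with the genotype. In WT, Thrsp was at 253 ± 74.2 CPM per kilobase, Thra at 7.22 ± 0.942, Slc16a10 at 6.48 ± 1.59, Thrb at 3.87 ± 0.628 and Dio2 at 0.390 ± 0.301 (SD, n = 5 each). Thra and Slc16a10 overlapped in WT and are not distinguished by their spread, while every WT library had less Thrb than any had Thra. In KO, Dio2 was second at 33.7 ± 17.85 CPM per kilobase, behind Thrsp at 178 ± 51.4, and the levels of Thra, Slc16a10 and Thrb overlapped at 6.73, 6.07 and 5.79. In dKO, Dio2 was again second at 16.8 ± 7.05.

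Thrsp, the gene of SPOT14, a nuclear and cytosolic protein of lipogenic tissues, varied more within dKO than between the other groups. Thrsp (ENSMUSG00000035686, mm9 chromosome 7, 104561448 to 104566240, minus strand, 2 exons) was at 305, 266, 440, 207 and 395 CPM in WT and 309, 287, 188, 188 and 165 CPM in KO. In dKO it was at 128, 270 and 199 CPM in replicates 1 to 3 and at 984 and 999 CPM in mice 1753 and 1753-2. These 2 libraries were the highest of all 15, and the other 3 dKO libraries overlapped with KO and WT.

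The log2 fold change of Thrsp was -0.50 (KO to WT, 95% interval -1.54 to 0.54), 1.18 (dKO to KO, 0.14 to 2.23) and 0.68 (dKO to WT, -0.36 to 1.72). None passed with edgeR (adjusted p = 0.847, 0.77 and 0.548). With the 1753 mice left out the 2 dKO values turned to -0.19 (adjusted p = 0.900) and -0.70 (adjusted p = 0.565). A mean of Thrsp over the 5 dKO libraries, 516 ± 437 CPM, is therefore a value that no dKO mouse had. The nearest gene considered, Ndufc2, of mitochondrial complex I, lies on the opposite strand more than 5000 bases away in the deposited coordinates, and its levels of 25.2, 32.7 and 39.1 CPM in WT, KO and dKO did not differ past the threshold (edgeR adjusted p = 0.19 at the lowest, from WT to dKO).

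Some fatty acid synthesis genes varied beside Thrsp. Fasn spanned 664.5 to 2590 CPM (WT), 354 to 1871 (KO) and 465 to 1079 (the other 3 dKO libraries), against 6187 and 6210 for the 1753 mice. Acly, which makes cytosolic acetyl-CoA, was at 75.3 to 108 CPM in those 3 and 745 to 752 in the 1753 libraries, and Acaca, the acetyl-CoA carboxylase, at 136 to 316 and 1166 to 1221. Mid1ip1, the paralog of Thrsp that activates acetyl-CoA carboxylase, was at 4.87 to 8.79 CPM in the 3 and at 41.0 and 46.9 in the 1753 libraries. None of the 10 listed synthesis genes passed in any comparison. In edgeR, 1, 4 and 3 of them had an unadjusted p under 0.05 from WT to KO, from KO to dKO and from WT to dKO. The shares over all genes were 9.54%, 6.17% and 14.5%. The median log2 fold changes of the 10 genes were -0.06, 1.02 and 0.77, against 0.00515, 0.00163 and -0.00248 over all tested genes. Both dKO comparisons include the 1753 mice. From KO to dKO, 8 of the 10 genes had positive fold changes, and over all 12188 genes 6142 did. Elovl6 and Scd1 did not, at -0.0007 and -0.032 on the log2 scale. Elovl6 reached at most 307 CPM in dKO, against 350 in WT and 310 in KO. The 1753 libraries also had the lowest lymphocyte marker sums of dKO (118 and 122.6 CPM for 8 genes, with up to 539 in the group) and the lowest macrophage sums (554.7 and 555.8 CPM for 6 genes, with up to 775). Their sums were the highest of dKO for 5 preadipocyte and fibroblast markers (1523 and 1600 CPM, from 513 in the group), for the 6 adipocyte markers (2626 and 2630 CPM, from 1302) and for the 6 brown and beige markers (242 and 218 CPM, from 122.5). The part of cell composition in the Thrsp levels was not tested.

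**Figure D4:**
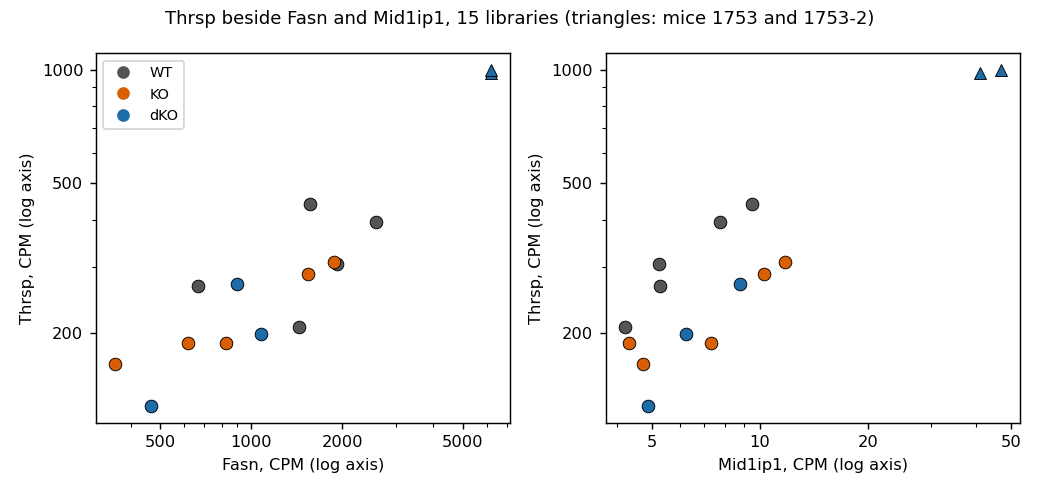
Thrsp against Fasn on the left and Mid1ip1 on the right, in CPM on log axes, 1 point per library for all 15, with mice 1753 and 1753-2 as triangles. The triangles lie apart at 6187 and 6210 CPM of Fasn and 984 and 999 CPM of Thrsp, and the other 13 libraries reach at most 440 CPM of Thrsp.

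Genes with the pattern most like that of Thrsp were sought by Pearson correlation of log2 CPM over the 15 libraries after the group means were subtracted, among 11090 genes. The closest was Mid1ip1 (r = 0.979), followed by Fdps, a farnesyl diphosphate synthase of sterol synthesis (0.975), Ywhag, a 14-3-3 protein (0.974), Gpd1, the cytosolic glycerol-3-phosphate dehydrogenase (0.965), and Gstz1, a glutathione transferase (0.964). After removal of the 1753 mice, Mid1ip1 was again the closest gene (0.911, 13 libraries) and the other 4 named had r of 0.851 to 0.903. For Dio2 the closest were Zfp772, a zinc finger gene (0.881), Wdr24, a component of the GATOR2 complex (0.862), Hmcn1, an extracellular matrix gene (0.846), Ucp1 (0.797), Cd160 (0.784) and Rbbp4, a histone-binding protein (0.78). After removal of the 1753 mice the genes named for Dio2 had r of 0.762 to 0.874 and ranks of 3 (Wdr24) to 74 (Cd160), with Ucp1 at 11. All genes of a library share its depth and tissue makeup, which differed among the libraries. With 2 to 20 Dio2 counts the WT deviations are also wide, so these values are a description only.

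The wider pathway was described with 57 genes in 9 lists by role, of which 51 were tested. Of the 51, 3 rose in KO against WT, namely Dio2, Ucp1 and Ppargc1a, and none fell, with 0.624% of all genes called in either direction. The same 3 rose from WT to dKO, where 0.615% of all genes were called, and Ucp1 alone fell in dKO against KO, where 0.0328% of all genes were called lower. The median log2 fold changes were 0.08 (KO to WT), 0.02 (dKO to KO) and 0.12 (dKO to WT). The groups did not overlap for 3 of the 51 genes in KO against WT, all higher, and for 6 in dKO against WT, all higher, where 2.11% and 1.3% of all genes were higher without overlap. Ucp1 and Ppargc1a were listed as T3-responsive genes with their rise in these libraries already known, and both have other inducers.

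Relative to WT, Ucp1 was 34.4 times as high in KO (log2 5.10 with an SE of 0.45, adjusted p = 2.81e-05 by edgeR) and 6.94 times in dKO (2.80 with an SE of 0.42, adjusted p = 0.00457). It fell in dKO against KO by 2.31 on the log2 scale (SE 0.39, adjusted p = 0.0393). That call was lost in 11 of 24 alternatives (adjusted p = 0.054 to 0.185), among them without KO replicate 1, 2 or 3 (0.103, 0.0949 and 0.0893) and without any 1 of dKO replicates 1 to 5 (0.054, 0.112, 0.0854, 0.15 and 0.172). If the 1753 mice were left out, the rise of Ucp1 over WT in dKO did not pass either (2.81, adjusted p = 0.0886). Ppargc1a, the coactivator PGC-1α that serves thyroid hormone receptors and drives mitochondrial biogenesis, was 2.67 times as high in KO as in WT (log2 1.42 with an SE of 0.24, adjusted p = 0.0077) and 2.42 times in dKO (1.27 with an SE of 0.24, adjusted p = 0.0218). The dKO call of Ppargc1a was lost in 9 of 24 alternatives (adjusted p = 0.0553 to 0.171), including without WT replicate 1, 2, 3 or 5 (0.0714, 0.0621, 0.0553 and 0.0684), without dKO replicate 4 or 5 (0.0654 and 0.0747) and without both 1753 libraries (0.171).

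**Figure D5:**
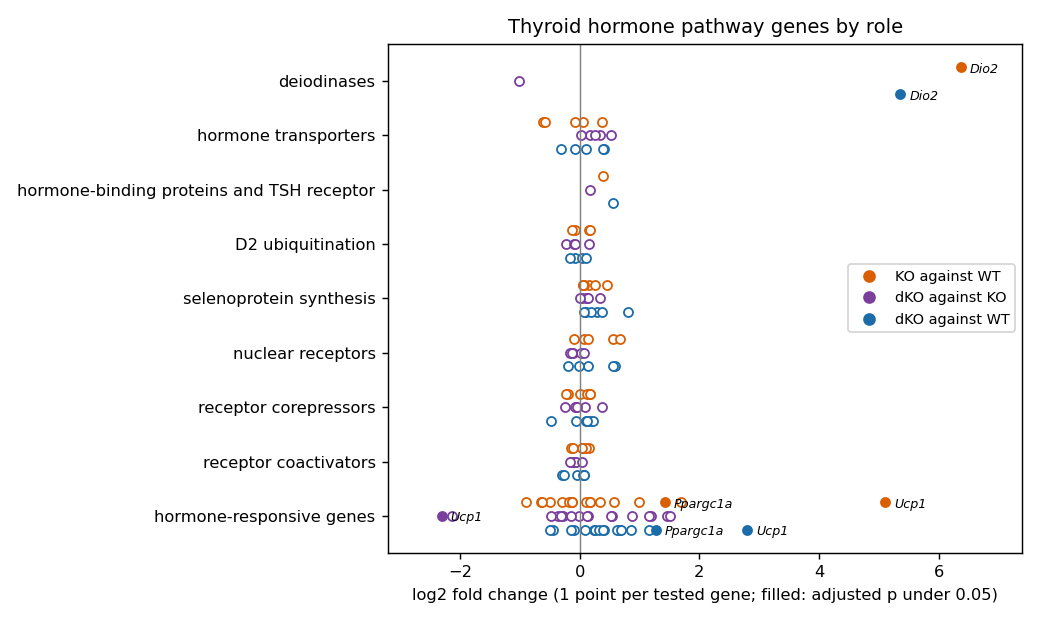
Log2 fold changes of the tested thyroid hormone pathway genes, grouped by role, with 1 point per gene in each of 3 comparisons and filled points where the edgeR adjusted p was under 0.05. Only Dio2, Ucp1 and Ppargc1a have filled points. The genes listed as transporters, receptors or coregulators lie between -0.61 and 0.68, and Ppargc1a is drawn with the responsive genes.

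Among the other hormone transporters none of the 5 tested passed. Slc3a2, the heavy chain shared by the LAT transporters, averaged 34.4 ± 4.98 CPM (WT), 44.8 ± 8.44 (KO) and 45.2 ± 2.95 (dKO), and its dKO libraries lay above WT without overlap (log2 0.40, edgeR adjusted p = 0.245). Slco1c1, a T4 transporter of brain vessels, had 3 counts in each group and was not tested. Tshr, the receptor of thyrotropin, averaged 62.9 ± 14.3 CPM (WT), 82.4 ± 19.7 (KO) and 92.5 ± 10.2 (dKO). Every dKO library had more Tshr than every WT library (log2 fold change 0.56, SE 0.17), but it did not pass (edgeR adjusted p = 0.155). The hormone-binding proteins Ttr and Serpina7, made by the liver, had 0 counts throughout, and the cytosolic T3-binding protein Crym had 8 to 17 counts per group.

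The machinery that makes and removes type 2 deiodinase showed no called gene. The enzyme holds selenocysteine. All 6 genes of selenoprotein synthesis had positive fold changes in each comparison, with medians of 0.12, 0.12 and 0.23 and no call. Their lowest log2 value was 0.008, from KO to dKO, and the 3 comparisons share groups. Over all 12188 genes, 6170, 6142 and 6059 were positive. Secisbp2, which binds the selenocysteine insertion element, averaged 23.3 ± 1.496 CPM (WT), 26.0 ± 3.11 (KO) and 28.4 ± 3.28 (dKO), and every dKO library lay above WT (log2 0.28, edgeR adjusted p = 0.332). Sepsecs, which forms selenocysteine on its transfer RNA, was at 21.4, 22.6 and 22.8 CPM. Of the 4 genes that ubiquitinate or deubiquitinate the enzyme, March6, the ligase TEB4, was at 144 ± 24.1, 136 ± 17.6 and 128 ± 15.9 CPM, and the deubiquitinase Usp33 at 75.1 ± 12.4, 85.1 ± 4.77 and 80.6 ± 7.30 CPM. None passed, with log2 fold changes between -0.22 and 0.18.

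The genes listed as receptor partners, corepressors or coactivators did not pass either. Ppargc1a and Hr, a coactivator and a corepressor, were listed with the T3-responsive genes instead, and Ppargc1a was called against WT as given above. Rxra, the main dimer partner, averaged 82.7 ± 10.8 CPM (WT), 86.5 ± 2.89 (KO) and 90.5 ± 22.1 (dKO), and Rxrg, at 2.68, 4.36 and 3.88 CPM, differed by 0.68 on the log2 scale between KO and WT (edgeR adjusted p = 0.433). The corepressors Ncor1 and Tbl1x were at 359, 403 and 388 and at 161, 176 and 186 CPM in WT, KO and dKO. The coactivators Ep300 and Crebbp were at 189, 176 and 158 and at 175, 180 and 184 CPM. Over the 12 genes listed as coregulators the log2 fold changes ran from -0.48 to 0.37 in the 3 comparisons.

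Classical T3-responsive genes did not move as one. Of 17 tested, 9 had positive fold changes in KO against WT and 13 in dKO against WT, with medians of 0.10 and 0.39. Over all 12188 genes, 6170 and 6059 were positive. The dKO values include the 1753 mice, which were the highest of dKO for Fasn, Acaca and Thrsp in this list. Without those mice Thrsp turned to -0.70 for dKO against WT. Hr, the hairless corepressor and a direct T3 target in brain, averaged 9.11 ± 5.97 CPM (WT), 18.3 ± 5.93 (KO) and 13.1 ± 7.25 (dKO), a log2 difference of 0.99 between KO and WT that did not pass (edgeR adjusted p = 0.439). Klf9, another direct target, was at 56.2 ± 5.46, 63.6 ± 4.72 and 52.2 ± 7.89 CPM. Pck1, the most abundant of the list after Fasn, was at 847 ± 318, 956 ± 142 and 769 ± 216 CPM. Atp2a1, the calcium pump of fast muscle, ran with the muscle markers, at 23.6 ± 46.2, 80.8 ± 139 and 17.6 ± 19.1 CPM, and the part of muscle in it was not tested. Rcan2, a calcineurin inhibitor first described as T3-responsive, differed by -0.63 between KO and WT (edgeR adjusted p = 0.625). A p that misses the threshold does not show that these levels were equal.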

How the data were processed

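Values used are the deposited raw read counts, unnormalized and 1 column per library, beside each gene's mm9 coordinates and exon length. FastQC, Subread, featureCounts and edgeR are named without versions in the submitters' processing notes, and the strand setting is not given in the sources used here. The 45 other columns of per-library values were not used.

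Counts were tested in R 4.3.3 with edgeR 4.0.16: filterByExpr (count of 10 or more, total of at least 15), TMM scaling, and a robust quasi-likelihood fit of all 15 libraries with a term per group (12 residual degrees of freedom). Tests were two-sided and adjusted by Benjamini-Hochberg over 12188 genes, with a threshold of 0.05. The SE is the log2 fold change over the square root of F. Ratios of counts were compared by exact permutation (scipy 1.17.1). Alternatives used DESeq2 1.42.0, limma 3.58.1 (voom) and others given at the end. P-values measure the spread between mice as labelled.

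The members, lists and ratios were chosen with earlier results of these data known. Named genes were the members, called pathway genes, the 2 most abundant genes of each list, neighbours of members and the 6 genes most like Dio2 and Thrsp; others in the text (Slco1c1, Rxrg, Hr, Klf9, Atp2a1, Rcan2, Crym, Ttr and Serpina7) were added after their values were seen. Of the genes the rule names, 1 is not reported here. Promoters are from RefSeq on GRCm38.p6, matched by symbol for 4 of 5 members, and no coordinates were converted between builds.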

Additional observations from a re-analysis of the deposited data

How the results depend on the processing

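Over 24 alternatives, Dio2 kept its direction in all 3 comparisons, with log2 fold changes of 6.04 to 6.96 (KO to WT), 5.13 to 5.96 (dKO to WT) and -1.21 to -0.68 (dKO to KO), and it stayed on the same side of the threshold in each. No alternative called any of the other members. Of these, some changed sign. With voom, Slc16a10 was 0.0268 for KO against WT and Thrsp -0.0954 for dKO against WT. With the 1753 libraries summed, Thrb was -0.087 for dKO against KO. Without both 1753 libraries, dKO against KO gave -0.324 for Thrb, -0.0605 for Slc16a10 and -0.191 for Thrsp, and dKO against WT gave -0.138 for Slc16a10 and -0.702 for Thrsp. With 1 library left out, the ranges of the results that changed sign were -0.235 to 0.0272 (Slc16a10, KO against WT), -0.0176 to 0.202 (Slc16a10, dKO against WT), -0.166 to 0.0144 (Thra, KO against WT) and -0.123 to 0.161 (Thrb, dKO against KO). The Thra to Thrb ratio for dKO against KO was 0.0121 with the 1753 libraries summed and 0.163 without them, and -0.377 to 0.163 with 1 library left out.

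The calls, 76 between KO and WT, 9 between dKO and KO and 75 between dKO and WT, became 163, 38 and 205 with DESeq2. Voom called 275 between KO and WT and 28 between dKO and WT. Fits of only the 2 groups compared called 224, 5 and 32. Without both 1753 libraries the counts were 270, 19 and 30, with those libraries summed 4 for dKO against KO and 26 for dKO against WT, and with no expression filter 19 for dKO against KO. With 1 library left out they were 36 to 93, 4 to 13 and 27 to 240. The 1 pathway gene called for dKO against KO, Ucp1, became 0 with no expression filter, with the 1753 libraries summed and without them, and 0 to 1 with 1 library left out. The 3 pathway genes called for dKO against WT became 1, Dio2, without both 1753 libraries. The cause of these changes was not tested.

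No paired analysis was possible because a title names a mouse and gives no number that another group shares. The WT level of Dio2 rests on 2 to 20 counts per library, and genes near 1 CPM on few counts in the shallower libraries, which limits the precision of their fold changes.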

Other observations

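Gm16738, an unnamed transcript on the opposite strand, shares 100 exon bases with Dio2 in the deposited coordinates. It had 0 counts in each of the 5 WT libraries, 16, 1, 2, 0 and 0 in KO and 2, 3, 0, 1 and 4 in dKO. It was below the expression filter and was not tested, and without a stated strand setting its reads cannot be told apart from those of the Dio2 exon it overlaps.

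Of the 10 fatty acid synthesis genes listed beside Thrsp, Scd1, the stearoyl-CoA desaturase, was the 1 whose KO libraries did not overlap with WT. It averaged 8003 ± 2037 CPM (WT), 14600 ± 2704 (KO) and 14280 ± 6063 (dKO), each with n = 5, and every KO library lay above every WT library. Its log2 fold change of 0.87 in KO (SE 0.26) did not pass with edgeR (adjusted p = 0.181), and it was chosen after its values were seen. Among all tested genes, 2.11% were higher in KO than in WT without overlap.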
